A study of Homo sapiens with 12 samples.

Results

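The 10 genes described here encode the machinery that opens the G1 phase of the cell cycle. They were chosen by name, with no measured value in the rule, but with earlier results of these data known. They are the D-type cyclins CCND1 (ENSG00000110092_at), CCND2 (ENSG00000118971_at) and CCND3 (ENSG00000112576_at), and the kinases CDK4 (ENSG00000135446_at) and CDK6 (ENSG00000105810_at). With them go the retinoblastoma gene RB1 (ENSG00000139687_at) and the inhibitor genes CDKN1A (ENSG00000124762_at), CDKN1B (ENSG00000111276_at), CDKN2C (ENSG00000123080_at) and CDKN2A (ENSG00000147889_at). All 10 were found among the 17710 gene rows of the expression table. Expression had been measured on Clariom S human arrays in MM.1S, an established human multiple myeloma cell line grown in RPMI-1640 with serum. The 12 arrays formed 4 groups of 3, from independent experiments. Control cells were untreated, and their culture time is not given in the sources used here. The PIM group received PIM447, a pan-PIM kinase inhibitor, at 100 nM over 24 hours. The Pd group received pomalidomide at 200 nM together with dexamethasone at 5 nM over 15 hours. The PIM-Pd group received these 3 agents, each at its same concentration, over 10 hours. Treatment was sub-lethal, with viability between 74 and 81%. Because exposure differed between groups, the agents and the time in culture cannot be told apart in any comparison.

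Cyclins of the D type bind CDK4 or CDK6, and the active complexes phosphorylate the retinoblastoma protein, which then releases E2F transcription factors and lets the cell enter S phase. The INK4 inhibitors, which include the products of CDKN2A and CDKN2C, bind CDK4 and CDK6 directly. The CIP/KIP inhibitors p21 (CDKN1A) and p27 (CDKN1B) restrain CDK2 complexes and also associate with cyclin D complexes. In multiple myeloma, raised expression of at least 1 D cyclin is a common feature, and MM.1S carries a translocation that activates MAF, a transcription factor known to raise CCND2.

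The values are log2 expression, so a difference of 1 is a 2-fold change. Array medians ran from 4.81 to 4.89, and the correlation between any pair of arrays over all rows ran from 0.977 to 0.993. Each value measures RNA pooled from a whole culture, so fewer cells with a transcript and less of it per cell cannot be told apart. Brightness depends on the probes, so levels were compared within a gene. The exceptions are the filter on dim rows and the place of CCND1, CDKN2C and CDKN2A among all rows, which are rough guides only. The precision of each difference is limited by 3 arrays per group.

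**Figure D1:**
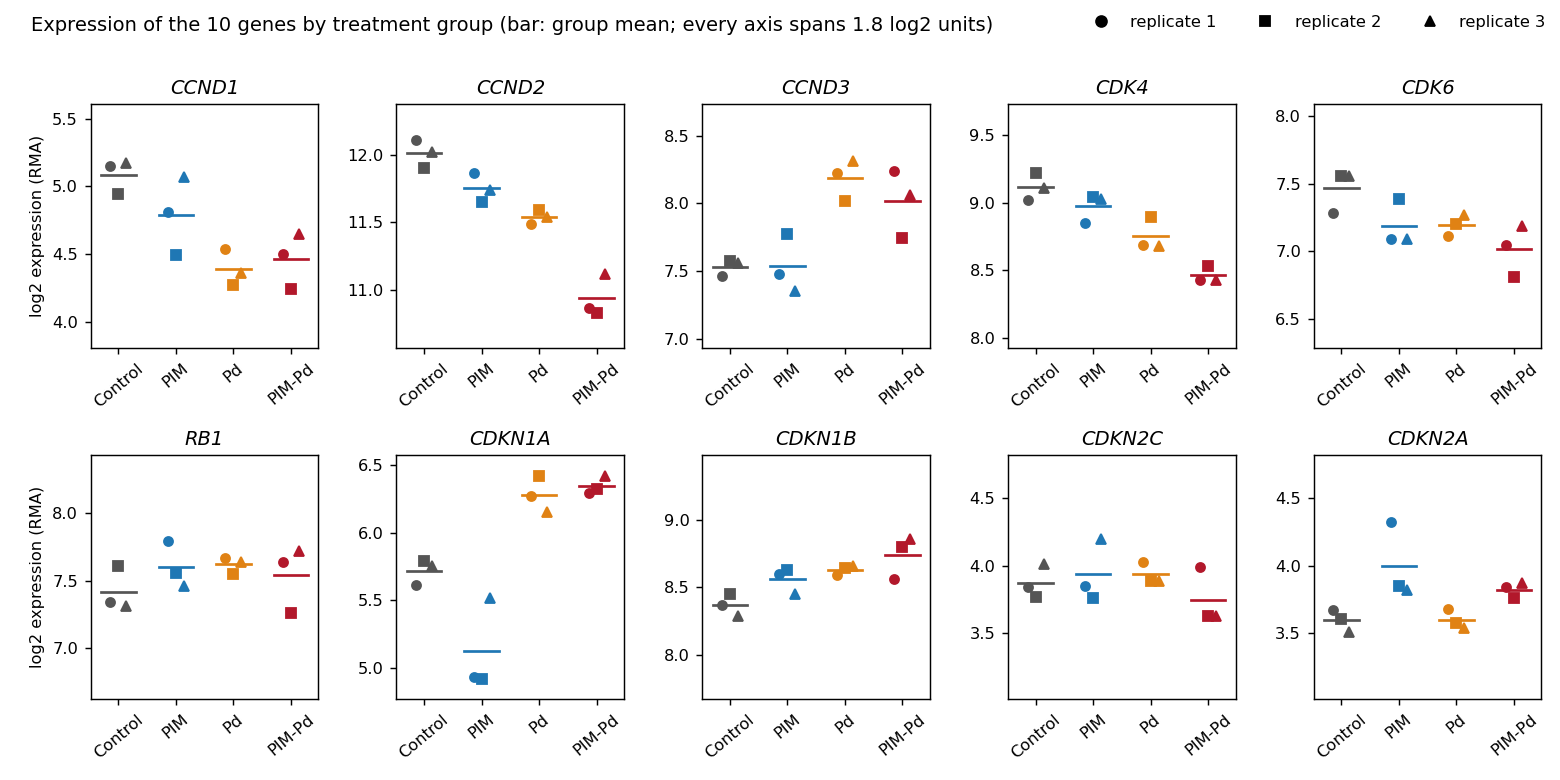
Log2 expression (RMA) of the 10 genes on each of the 12 arrays. Marker shapes give the replicate number, bars the group means, and every vertical axis spans the same number of log2 units. CCND2 stepped down from a mean of 12.01 in Control to 10.94 in PIM-Pd, and CDKN1A was lowest in PIM (mean 5.13) and highest in PIM-Pd (mean 6.34).

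Differences were tested with limma over all rows, and a gene was called when its Benjamini-Hochberg adjusted p was under 0.05. Because the 10 genes were chosen with earlier results of these data known, shares over all rows are background and no test of the set. In PIM-Pd against Control, 6 of the 10 genes were called, 4 lower (CCND1, CCND2, CDK4 and CDK6) and 2 higher (CDKN1A and CDKN1B). Of all 17710 rows, 1671 were called (9.44%), with 5.02% lower and 4.42% higher. In Pd against Control, 4 genes were called, CCND1 and CCND2 lower and CCND3 and CDKN1A higher, against a background of 960 rows (5.42%), 1.94% lower and 3.48% higher. In PIM-Pd against PIM, 3 genes were called, CCND2 and CDK4 lower and CDKN1A higher, against 1003 rows (5.66%), 2.71% lower and 2.95% higher. In PIM-Pd against Pd, limma called 0 of the 10 genes and 14 rows of the table (0.0791%), 0.0734% lower and 0.00565% higher. At an unadjusted p under 0.05, 2 of the 10 genes and 1518 rows (8.57%) passed in that comparison. In PIM against Control, limma called 0 of the 10 genes and 0 rows (0% lower, 0% higher), while 3 of the 10 genes and 1098 rows (6.20%) had an unadjusted p under 0.05.

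Few of these differences reached 2-fold. With both an adjusted p under 0.05 and at least a 2-fold change, only CCND2 passed among the 10 genes in PIM-Pd against Control, where 255 rows passed (1.4%). Only CDKN1A did so in PIM-Pd against PIM, where 0.977% of rows passed. None of the 10 genes did so in Pd against Control (1.08% of rows), in PIM-Pd against Pd (0.00565%) or in PIM against Control (0%). The median absolute log2 difference of the 10 genes was 0.46 in PIM-Pd against Control, beside 0.13 over all rows. It was 0.32 beside 0.13 in Pd against Control, and 0.23 beside 0.10 in PIM against Control. In PIM-Pd it was 0.17 beside 0.11 against Pd, and 0.25 beside 0.13 against PIM. This background includes the dimmest 25% of rows, and all 10 genes lay above that cut. The signed medians of the 10 genes lay near 0 in PIM-Pd (-0.001) and Pd (0.03) against Control, as genes that were higher and genes that were lower balanced. Signed medians were -0.071 in PIM against Control, -0.126 in PIM-Pd against Pd and -0.177 in PIM-Pd against PIM.

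**Figure D2:**
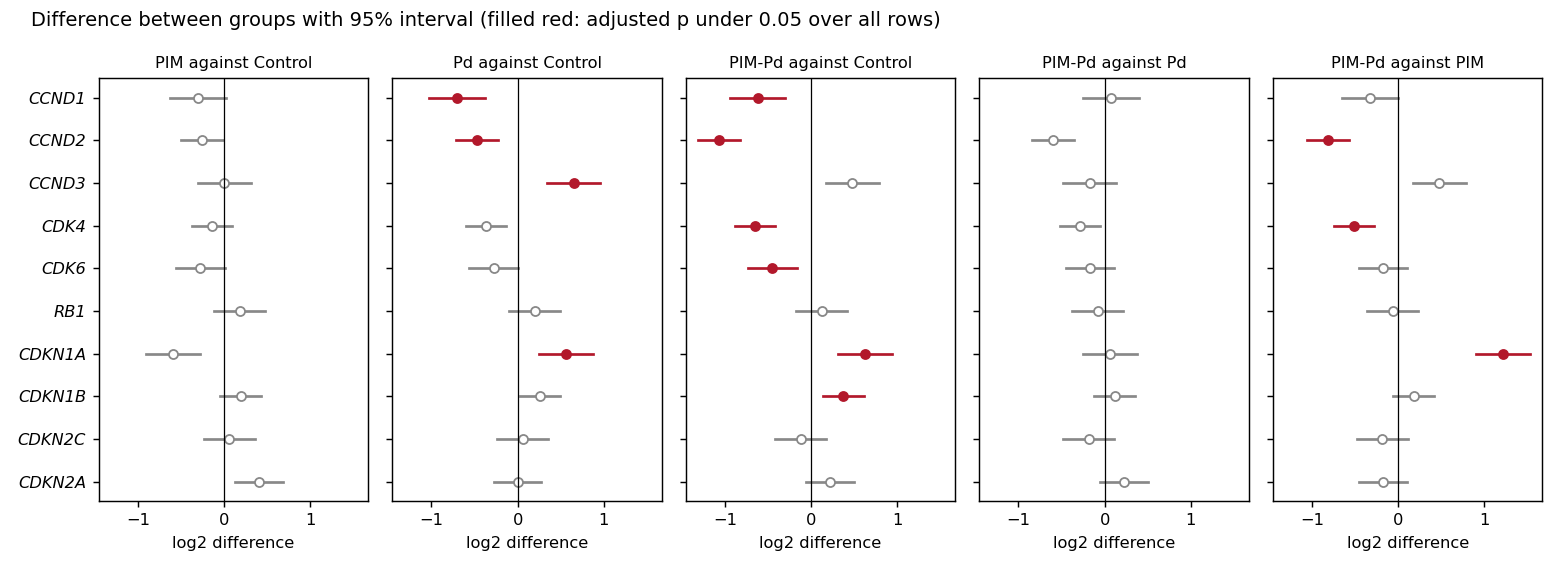
Log2 difference of each gene (point) with its 95% interval (line) in the 5 comparisons. Filled red points have an adjusted p under 0.05 over all 17710 rows. Red points lie on both sides of 0 in 3 comparisons, and no point is red in PIM against Control or in PIM-Pd against Pd.

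CCND2, the gene of cyclin D2, had the largest difference of the 10 genes in PIM-Pd against Control. It read 12.11, 11.90 and 12.02 in Control replicates 1, 2 and 3, and 11.86, 11.65 and 11.74 in PIM. It read 11.49, 11.59 and 11.54 in Pd, and 10.87, 10.83 and 11.12 in PIM-Pd. No array of 1 group overlapped another group, and the order from high to low was Control, PIM, Pd and PIM-Pd. CCND2 fell by 1.07 on the log2 scale in PIM-Pd against Control (SE 0.11, 2.10-fold lower, adjusted p 4.58e-05), a size that 1.15% of all rows exceeded. It fell by 0.47 in Pd against Control (SE 0.11, adjusted p 0.0228) and by 0.81 in PIM-Pd against PIM (SE 0.11, adjusted p 0.000536). The call in Pd against Control held in only 1 of 6 refits without 1 array (adjusted p up to 0.11). The other 2 comparisons did not pass. In PIM against Control the difference was -0.26 (95% interval -0.50 to -0.02, adjusted p 0.788), with PIM lower in 3 of 3 same-numbered pairs by 0.24 to 0.28. In PIM-Pd against Pd it was -0.60 (95% interval -0.84 to -0.36, adjusted p 0.0756), lower in 3 of 3 pairs, and only 0.757% of rows differed by more. That last difference was called in 1 of 13 alternative settings, with trend and robust variances (adjusted p 0.0106), and its adjusted p reached 0.279 with 1 array left out.

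CCND1, the gene of cyclin D1, read 5.15, 4.94 and 5.17 in Control and 4.81, 4.49 and 5.07 in PIM. It read 4.54, 4.27 and 4.36 in Pd and 4.50, 4.24 and 4.65 in PIM-Pd. Its mean over the 12 arrays was 4.68, below the lowest array median of 4.81, and 47.5% of all rows had a lower mean. Every Pd and PIM-Pd array lay below every Control array, the PIM arrays overlapped Control, and Pd and PIM-Pd overlapped each other. CCND1 fell by 0.70 in Pd against Control (SE 0.15, 1.62-fold lower, adjusted p 0.0135) and by 0.62 in PIM-Pd against Control (SE 0.15, adjusted p 0.0172). Without 1 array, the call in Pd held in 2 of 6 refits (adjusted p up to 0.0602). That in PIM-Pd held in 3 of 6 (adjusted p up to 0.0733). The difference between PIM-Pd and Pd was 0.08 (95% interval -0.25 to 0.40, adjusted p 0.93), and that between PIM and Control -0.30 (-0.62 to 0.03, adjusted p 0.807). In PIM-Pd against PIM the difference of -0.32 did not pass either (adjusted p 0.297). With 1 array left out, the difference between PIM and Control ran from -0.44 to -0.15 and that between PIM-Pd and PIM from -0.47 to -0.18.

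CCND3, the gene of cyclin D3, moved the other way from CCND1 and CCND2 under Pd. It read 7.46, 7.57 and 7.56 in Control, 7.48, 7.77 and 7.35 in PIM, 8.22, 8.02 and 8.31 in Pd, and 8.24, 7.74 and 8.06 in PIM-Pd. All Pd and PIM-Pd arrays stood above all Control arrays, and replicate 2 of PIM-Pd, the lowest of its group, lay inside the range of PIM. CCND3 rose by 0.65 in Pd against Control (SE 0.14, 1.57-fold higher, adjusted p 0.0151). It kept this call in 3 of 6 refits without 1 array (adjusted p up to 0.0811). In PIM-Pd against Control its difference of 0.48 just missed the threshold (SE 0.14, adjusted p 0.0511, higher in 3 of 3 pairs). It was called in 4 of 13 alternative settings, among them cyclic loess (adjusted p 0.0414) and the fit without PIM-Pd replicate 2 (a difference of 0.61, adjusted p 0.0173). It was not called in the other 9, which include the replicate number as a block (adjusted p 0.0613) and the fit without PIM-Pd replicate 1 (a difference of 0.36, adjusted p 0.196). In PIM-Pd against PIM the difference was 0.48 (adjusted p 0.0717), called in 2 of 13 settings. It was called without PIM replicate 2 (0.59, adjusted p 0.0389) or PIM-Pd replicate 2 (0.61, adjusted p 0.0283), and leaving out any other array gave adjusted p of 0.179 to 0.226, with a difference down to 0.36. PIM and Control had the same mean of 7.53, with a 95% interval for the difference of -0.31 to 0.31.

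CDK4, a catalytic partner of the D cyclins, read 9.02, 9.22 and 9.11 in Control and 8.85, 9.04 and 9.03 in PIM. It read 8.69, 8.89 and 8.68 in Pd and 8.43, 8.53 and 8.43 in PIM-Pd. The group means followed the same order as those of CCND2, and the PIM-Pd arrays lay below all 9 others. CDK4 fell by 0.65 in PIM-Pd against Control (SE 0.11, 1.57-fold lower, adjusted p 0.00155) and by 0.51 in PIM-Pd against PIM (SE 0.11, adjusted p 0.0119), lower in 3 of 3 pairs each time. The second of these calls was lost with only PIM and PIM-Pd in the fit (adjusted p 0.0620). In Pd against Control the difference of -0.36 did not pass (adjusted p 0.0717), but it did with the replicate number as a block (adjusted p 0.0462) and with array weights (adjusted p 0.0310). The differences in PIM-Pd against Pd (-0.29, adjusted p 0.473) and PIM against Control (-0.14, adjusted p 0.877) did not pass.

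CDK6, the other catalytic partner, read 7.28, 7.56 and 7.56 in Control, 7.09, 7.39 and 7.09 in PIM, 7.11, 7.20 and 7.27 in Pd, and 7.05, 6.81 and 7.19 in PIM-Pd. PIM-Pd and Control did not overlap, though the gap between them was 0.09. CDK6 fell by 0.45 in PIM-Pd against Control (SE 0.13, 1.37-fold lower, adjusted p 0.0446). CDK6 was called there in only 6 of 13 alternative settings (adjusted p up to 0.164). Its differences against Control of -0.28 in PIM (adjusted p 0.80) and -0.28 in Pd (adjusted p 0.306) did not pass. RB1, the substrate of these kinases, read 7.31 to 7.61 in Control, 7.46 to 7.79 in PIM, 7.55 to 7.67 in Pd and 7.26 to 7.72 in PIM-Pd. Its ranges overlapped in all 5 comparisons and its differences ran from -0.08 to 0.20, with no adjusted p below 0.553.

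The stretch before the transcription start in the RefSeq promoter table is shown for members called in PIM-Pd against Control that this table lists. In that comparison CDK4 and CDK6 were both lower, and CDKN1A and CDKN1B both higher. RefSeq promoter sequences (GRCh38.p14) matched 8 of the 10 genes by symbol, all but CCND1 and CCND2. Where the table lists several starts of a gene, as for CDK6, CCND3, CDKN2C and CDKN2A, only the first listed was used. The 250 bases before each start were searched on both strands for CACGTG, the canonical E-box, and for GGGCGG, a GC box. They were also searched for 4 E2F-type words (TTTGGCGC, TTTGCCGC, TTTCGCGC and TTTCCCGC), for AGAACA, a hexamer bound by the glucocorticoid receptor, and for its palindrome of 2 facing copies 3 bases apart, which contains the hexamer. Capitals mark the matches, a GC box on the other strand reading CCGCCC. The CDK4 stretch is chr12:57752311-57752560 and the CDK6 stretch chr7:92836574-92836823, both on the minus strand and written 5′ to 3′ along the gene.
CDK4: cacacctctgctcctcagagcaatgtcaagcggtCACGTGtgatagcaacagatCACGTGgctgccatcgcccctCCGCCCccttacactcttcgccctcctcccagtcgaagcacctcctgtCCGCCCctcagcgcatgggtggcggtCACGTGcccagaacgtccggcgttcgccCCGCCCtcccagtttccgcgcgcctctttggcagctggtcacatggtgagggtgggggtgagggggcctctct
CDK6: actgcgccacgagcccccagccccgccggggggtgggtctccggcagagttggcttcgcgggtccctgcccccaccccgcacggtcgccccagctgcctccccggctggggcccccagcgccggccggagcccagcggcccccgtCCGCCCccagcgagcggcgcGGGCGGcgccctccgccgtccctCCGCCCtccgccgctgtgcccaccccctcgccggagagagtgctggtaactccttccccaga
The CDK4 stretch held 3 copies of CACGTG, whose first bases lie 216, 196 and 101 bases before the start. At least 1 copy was held by 6.49% of the 27305 promoters searched, and 3 or more by 24 of them (0.0879%). CDK4 and CDK6 also held 3 GC boxes each. At least 1 GC box was found in 42.3% of promoters, and the share with several was not counted. No match to the E2F words (2.79% of promoters) or the receptor hexamer (12.4%) was in either window, which says only that these letters are not there.

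CDKN1A, the gene of p21, had the widest swing of the 10 genes. It read 5.61, 5.79 and 5.75 in Control and 4.93, 4.92 and 5.52 in PIM. It read 6.27, 6.42 and 6.15 in Pd and 6.29, 6.32 and 6.42 in PIM-Pd. PIM lay below Control on every array, with replicate 3 the closest to it, while Pd and PIM-Pd lay above Control and overlapped each other. CDKN1A rose by 0.56 in Pd against Control (SE 0.15, 1.48-fold higher, adjusted p 0.0393) and by 0.63 in PIM-Pd against Control (SE 0.15, 1.54-fold higher, adjusted p 0.014). The call in Pd was lost whichever of its 6 arrays was left out (adjusted p 0.0709 to 0.153). In PIM-Pd against PIM it was 2.32-fold higher (log2 difference 1.22, SE 0.15, adjusted p 0.000203), the largest difference of the 10 genes in any of the 5 comparisons. In PIM against Control the difference was -0.59 (95% interval -0.91 to -0.27), lower in 3 of 3 pairs by 0.23 to 0.86. That size ranked 52 among 17710 rows, yet its adjusted p over the table was 0.666. PIM-Pd and Pd differed by 0.06 (95% interval -0.25 to 0.38, adjusted p 0.939).

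CDKN1B, the gene of p27, read 8.37, 8.45 and 8.29 in Control, 8.60, 8.63 and 8.45 in PIM, 8.59, 8.64 and 8.66 in Pd, and 8.56, 8.80 and 8.86 in PIM-Pd. The 3 treated groups overlapped one another and none of their arrays read below the highest Control value. CDKN1B rose by 0.38 in PIM-Pd against Control (SE 0.11, 1.30-fold higher, adjusted p 0.0453). CDKN1B was called there in only 5 of 13 alternative settings (adjusted p up to 0.165). Its differences against Control in PIM (0.19, adjusted p 0.83) and Pd (0.26, adjusted p 0.234) were positive in 3 of 3 pairs and did not pass. The stretches of both CIP/KIP genes are shown because these 2 inhibitors were higher in PIM-Pd, at chr6:36678464-36678713 for CDKN1A and chr12:12717118-12717367 for CDKN1B, both on the plus strand. The CDKN1A record spans earlier starts as well, so its window lies inside the gene, before an internal start, and not upstream of the whole gene.
CDKN1A: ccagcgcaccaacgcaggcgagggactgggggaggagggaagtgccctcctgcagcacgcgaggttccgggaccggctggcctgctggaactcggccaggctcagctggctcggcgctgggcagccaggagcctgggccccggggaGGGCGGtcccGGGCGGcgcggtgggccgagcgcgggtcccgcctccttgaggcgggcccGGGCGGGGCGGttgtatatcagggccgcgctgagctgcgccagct
CDKN1B: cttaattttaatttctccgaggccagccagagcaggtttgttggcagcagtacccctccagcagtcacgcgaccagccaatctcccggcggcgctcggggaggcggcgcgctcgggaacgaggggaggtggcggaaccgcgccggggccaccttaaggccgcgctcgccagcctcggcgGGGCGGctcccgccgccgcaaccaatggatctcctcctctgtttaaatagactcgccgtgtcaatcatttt
CDKN1A held 4 GC boxes and CDKN1B 1. Neither window held CACGTG, an E2F word or the glucocorticoid receptor hexamer. Among the members not printed, where the windows of CCND3 and RB1 also lie inside the gene, CCND3 held 5 GC boxes, CDKN2C 1 copy of CACGTG, RB1 1 receptor hexamer and CDKN2A no match. The E2F words were in none of the 8 windows, and neither was the palindrome (0.00366% of all promoters).

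The INK4 genes CDKN2C and CDKN2A had means of 3.87 and 3.76 over the 12 arrays, close to the value of 3.63 below which 25% of all rows lay. CDKN2A, whose row covers transcripts of both p16 and p14ARF, read 3.51 to 3.67 in Control, 3.82 to 4.32 in PIM, 3.54 to 3.68 in Pd and 3.76 to 3.87 in PIM-Pd. In PIM against Control its difference was 0.40 (95% interval 0.12 to 0.68, adjusted p 0.667), higher in 3 of 3 pairs, and 2.65% of rows differed by more. PIM replicate 1 read 4.32 beside 3.85 and 3.82, and without it the difference was 0.24. The other differences of CDKN2A ran from -0.18 to 0.22, and none passed. In PIM-Pd against PIM it was -0.18, and -0.02 without PIM replicate 1. PIM-Pd was higher in 3 of 3 pairs, with no overlap, against Control and against Pd. CDKN2C, which encodes p18, read 3.77 to 4.01 in Control, 3.76 to 4.20 in PIM, 3.89 to 4.03 in Pd and 3.63 to 3.99 in PIM-Pd. Its groups overlapped in all 5 comparisons and its differences ran from -0.18 to 0.06, with no adjusted p below 0.589.

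**Figure D3:**
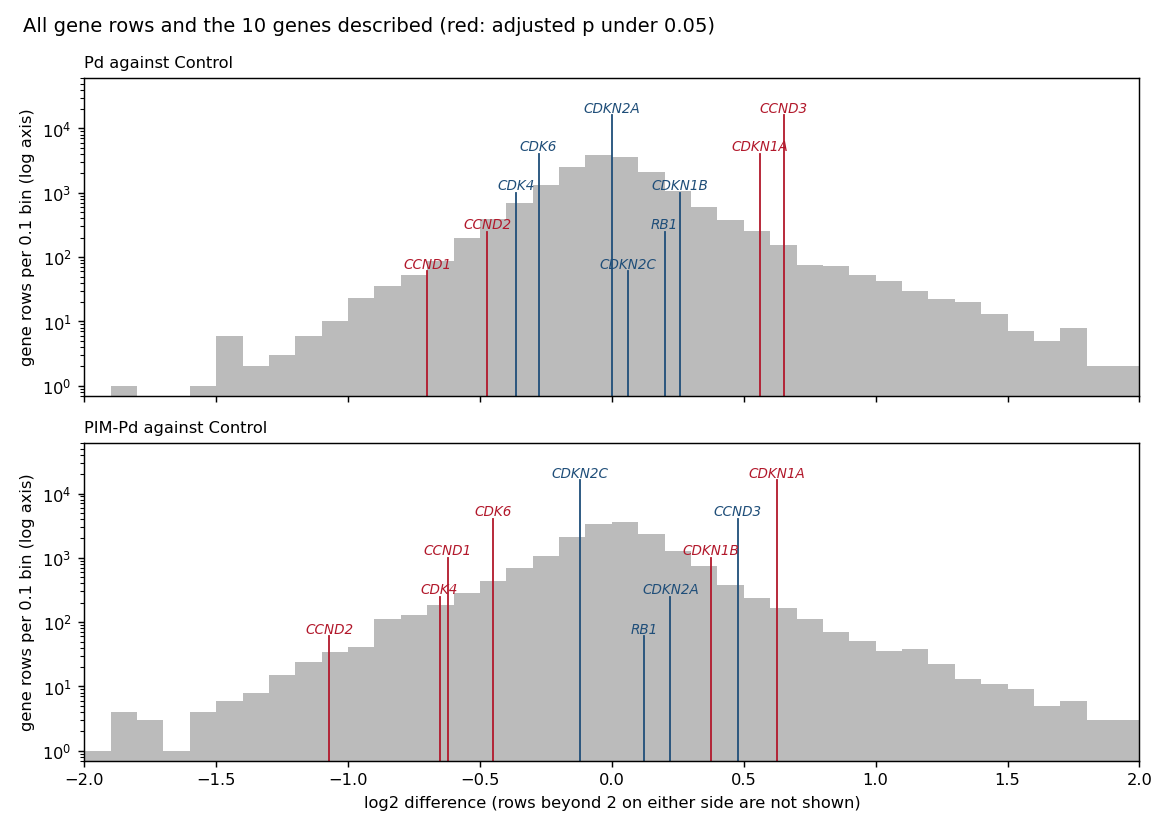
Number of gene rows (vertical log axis) by log2 difference (horizontal axis) in Pd against Control and in PIM-Pd against Control, with the 10 genes marked. Red marks have an adjusted p under 0.05. CCND2 lies at -1.07 in the lower panel, where 1.15% of rows have a larger absolute difference, while RB1, CDKN2A and CDKN2C lie within the bulk of the rows in both panels.

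Across the 12 arrays, CCND2 and CDK4 were the most alike of the 45 pairs of genes (Pearson r = 0.88), and CCND1 and CDKN1B the most opposed (r = -0.78). The arrays share 4 treatments and a joint normalization, so these values include the differences between groups. Taken as deviations from each group's mean, the correlation of CCND2 with CDK4 was -0.50 and that of CCND1 with CDKN1B -0.45. For the 6 genes called in PIM-Pd against Control, the 3 most similar rows of the whole table had r between 0.893 and 0.976. The row nearest to CCND2 was ENSG00000150753_at (r = 0.975) and the row nearest to CDK4 was ENSG00000114867_at (r = 0.976), both lower in PIM-Pd than in Control by 0.66 and 0.78. The row nearest to CDKN1A was ENSG00000168394_at (r = 0.93) and that nearest to CDKN1B was ENSG00000105851_at (r = 0.927), higher by 0.59 and 0.67. Each such row was picked for its similarity over the same 12 arrays, so the shared direction largely follows from the choice. The reference table named 0 of the 17710 rows through its Ensembl column, so rows other than the 10 genes carry no symbol. For the same reason, lists of related pathway genes and of cell type markers were not analysed here, and the labelled cell type was not checked against its markers.

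The number of calls depended on which arrays were included. In PIM-Pd against Control, CCND2 and CDK4 were called in each of 13 alternative settings, with a highest adjusted p of 0.00101 and 0.00978. The number of called genes was 3 without Control replicate 1 or 3, 4 without Control replicate 2 or PIM-Pd replicate 2 or 3, and 5 without PIM-Pd replicate 1. In those refits 1096 to 1435 rows of the table were called, fewer than with all arrays. CDKN1B was called in 5 of the 13 settings, CDK6 in 6, CCND1 in 10 and CDKN1A in 11. The split of calls also moved with the scaling between arrays, from 2 higher and 4 lower to 3 and 3 after cyclic loess and to 1 and 4 after median centring. Over the whole table it moved from 782 higher and 889 lower to 839 and 821 after cyclic loess, and to 634 and 1005 after median centring.

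In Pd against Control, no call of the 10 genes held in every setting: of 13, CCND3 was called in 10, CCND1 in 9, CCND2 in 8 and CDKN1A in 5. The number of called genes was 0 without Control replicate 1 or Pd replicate 3, 1 without Control replicate 3 or Pd replicate 1 or 2, and 3 without Control replicate 2. Over the whole table, those refits called 497 to 720 rows. The split was 2 higher and 2 lower, and became 1 and 2 after median centring, where CDKN1A had an adjusted p of 0.0602. In PIM-Pd against PIM, CCND2 and CDKN1A were called in 13 of 13 settings, and 3 or 4 genes were called whichever array was left out. Over the whole table, those refits called 648 to 901 rows, and the fit with only the 2 groups called 455.

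**Figure D4:**
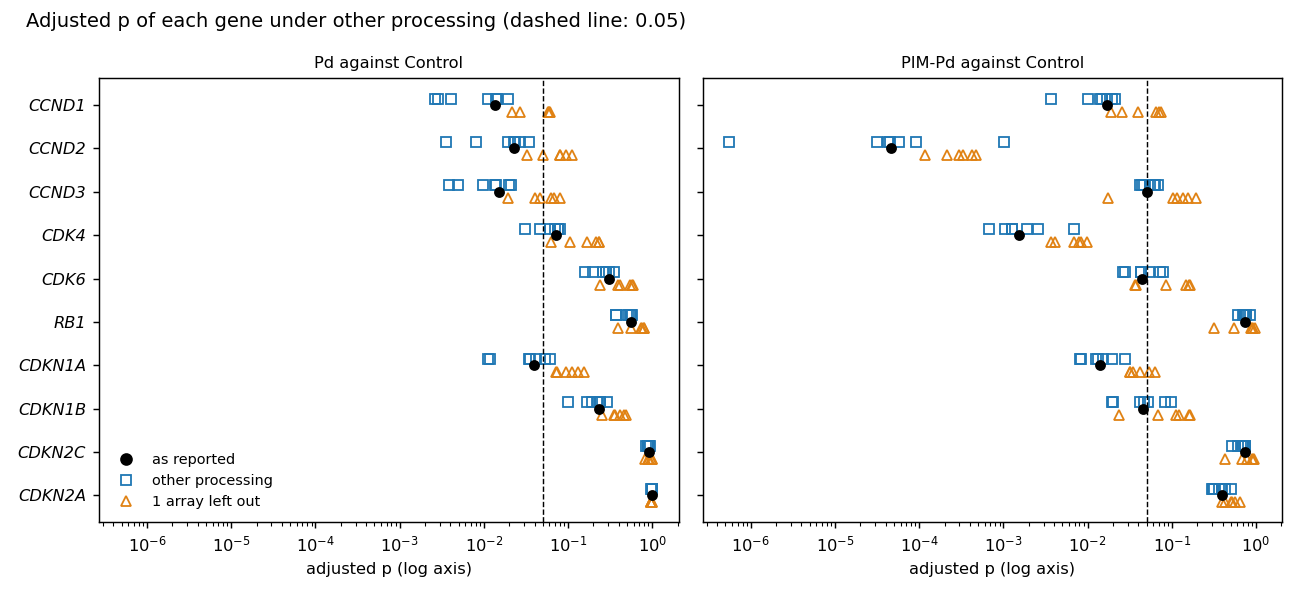
Adjusted p (horizontal log axis) of each gene in Pd against Control and in PIM-Pd against Control. Black points are the reported fit, blue squares other processing of all arrays, and orange triangles refits without 1 array. The dashed line marks 0.05. In the right panel all symbols of CCND2 and CDK4 lie left of the line, while those of CDK6 and CDKN1B lie on both sides.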

How the data were processed

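Total RNA from 12 MM.1S cultures had been hybridised to Clariom S human arrays, 1 array per culture. The deposited log2 values are the authors' RMA output (oligo 1.44.0 in R 3.5.0): background-corrected, quantile-normalized and summarised per Ensembl gene with a custom chip definition. Quantile normalization gives all arrays nearly the same distribution, so a shift shared by most genes would not be seen. No further normalization or filter was applied. Groups came from the labels. The authors tested with SAM, which was not run here. Instead limma 3.58.1 (lmFit, contrasts.fit and eBayes, in R 4.3.3) was fitted to all 17710 rows with 4 group means, after being tested on simulated data. Each of 5 comparisons was adjusted by Benjamini-Hochberg over all rows.

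The labels describe the replicate number as marking pairs. Deviations from group means of same-numbered arrays had r from -0.10 to 0.30, over 0.1 in 9 of 18 pairs, and the number entered as a block in an alternative fit. Other alternatives were a filter on dim rows, cyclic loess, median centring, only the 2 groups compared, trend and robust variances, array weights, leaving out each array, and an added 2-fold limit. The members and lists were chosen with earlier results of these data known. The text names all 10 members and the rows most correlated with those called in PIM-Pd against Control. Symbols of the members came with the choice, and promoter sequences from RefSeq.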

Additional observations from a re-analysis of the deposited data

How the results depend on the processing

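All called log2 differences kept their direction in every setting tried. Leaving out 1 array leaves a smaller group and fewer degrees of freedom. In Pd against Control it gave 0 to 3 calls, with differences of -0.77 to -0.64 for CCND1, -0.53 to -0.42 for CCND2, 0.59 to 0.73 for CCND3 and 0.49 to 0.62 for CDKN1A. In PIM-Pd against Control it gave 3 to 5 calls, with -0.72 to -0.51 for CCND1, 0.36 to 0.61 for CCND3, -0.54 to -0.35 for CDK6, 0.57 to 0.66 for CDKN1A and 0.32 to 0.47 for CDKN1B. In PIM-Pd against PIM it moved CCND3 between 0.36 and 0.61.

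With the replicate block, CDK4 in Pd against Control was called at the same difference of -0.36, as with array weights, and the block changed no other call. It gave 5 calls there and left the counts at 6, 3, 0 and 0 in PIM-Pd against Control, PIM-Pd against PIM, PIM-Pd against Pd and PIM against Control. CDKN1A in Pd against Control lost its call with median centring (0.55), trend and robust variances (0.56) and each of the 6 arrays left out, so it held in 5 of 13 settings. In PIM-Pd against Control, CCND3 gained one without the dimmest rows (0.48), with cyclic loess (0.53) and with trend and robust variances (0.48). There CDK6 lost its call with cyclic loess (-0.41), trend and robust variances (-0.45) and 2 groups in the fit (-0.45), and CDKN1B without the dimmest rows (0.38), with median centring (0.33) and with 2 groups (0.38). CDK4 in PIM-Pd against PIM lost its call with 2 groups in the fit (-0.51). Trend and robust variances raised the count in PIM-Pd against Pd to 1, through CCND2 (-0.60). The rows of the whole table called in that comparison numbered 2 to 15 with 1 array left out. They numbered 1 with 2 groups in the fit and 26 with trend and robust variances. Asking for 2-fold left 0 calls in Pd against Control, 1 in PIM-Pd against Control and 1 in PIM-Pd against PIM. The cause of these changes was not tested.

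Over all settings, 12 recomputed differences changed sign, all of them uncalled. Against Control, CCND3 in PIM gave -0.03 with median centring, -0.009 with array weights and -0.116 to 0.094 with 1 array left out, CDKN2C in PIM -0.072 to 0.153, and CDKN2A in Pd -0.017 with median centring and -0.043 to 0.037. In PIM-Pd, CCND1 gave -0.017 to 0.190 and RB1 -0.171 to 0.060 against Pd, and RB1 -0.153 to 0.078 against PIM. The mean readings of CDKN2A and CDKN2C lay above those of only 28.6% and 31.7% of all rows, and that of CCND1 above 47.5%. Probes differ in brightness and no detection limit was measured, so whether weak signal limits their differences was not tested.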
